A study of Mus musculus with 12 samples.

Results

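The 10 circadian clock genes Arntl, Clock, Per1, Per2, Per3, Cry1, Cry2, Nr1d1, Nr1d2 and Dbp were followed by their Ensembl identifiers among the 57010 gene IDs counted in each library. All 10 were found, and 9 of them were among the 14253 genes tested. Per3 was listed at 0 in all 12 libraries. RNA was measured in primary chondrocytes, the cells that make cartilage matrix, from mice of wild-type genotype. Each group had 4 libraries. The Control libraries came from cells whose treatment is labelled only as Control, and what these cells received is not given in the sources used here. The WT libraries came from cells transfected with a plasmid labelled wild type, read here as wild-type SIRT5. The SIRT5F101L libraries came from cells transfected with the plasmid labelled as SIRT5F101L mutant. SIRT5 is a sirtuin that removes malonyl, succinyl and glutaryl groups from lysines, mainly in mitochondria. The labels give no age, harvest time, synchronization of the cells or link between libraries and animals. The phase of any rhythm is therefore unknown, and a difference in level cannot be told apart from a difference in phase.

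In the circadian clock, the proteins encoded by Arntl (BMAL1) and Clock bind E-box sequences as a pair and switch on the Per and Cry genes, whose products return to inhibit that pair. The same activators drive Nr1d1 and Nr1d2, which encode REV-ERB alpha and beta, and these repress Arntl by occupying sites that the ROR receptors activate. Dbp, an activator of D-box genes, is a direct output of the BMAL1-CLOCK pair. Chondrocytes are known to hold such a clock, and deleting Arntl in mouse cartilage is known to cause its progressive degeneration.

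The libraries held 15095357 to 24242139 counts, so 1 count was worth 0.0401 to 0.0650 CPM (the count scaled to library size, after TMM). A principal component analysis set Control apart from both plasmid groups on component 1 (72.7% of variance). On component 2 (5.66%), SIRT5F101L replicate 1 lay at 20.3, beside WT replicates 2 to 4 at 12.5 to 20.1, WT replicate 1 lay between at -1.07, and the other 3 SIRT5F101L libraries lay at -23.5 to -17.0. Mouse Sirt5 itself had 9 to 16 counts in Control, 1 to 9 in the libraries labelled WT and 9 to 19 in those labelled SIRT5F101L, so its counts do not show the plasmids. The species and sequence of the insert are not given in the sources used here, and the groups are named by their labels throughout. All 8 chondrocyte markers were detected, but their summed level was 8958 to 11265 CPM in Control, 2714 to 2837 in WT and 2199 to 2450.3 in SIRT5F101L, and 7 of the 8 fell in each plasmid group. The other, Acan, rose in WT (log2 0.47) and was not called in SIRT5F101L (0.10).

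Markers of other cell types moved too. The leukocyte sum was 161 to 198 CPM in Control, 83.5 to 96.0 in WT and 83.0 to 107 in SIRT5F101L, with 7 of 8 markers lower in each and Itgam listed at 0. The fibroblast sum was 17269 to 20461, 6064 to 6887 and 5915 to 6862 CPM, where 4 of 5 markers fell and Pdgfra rose. Osteoblast markers summed to 13.8 to 21.6, 1.16 to 1.92 and 1.13 to 1.88 CPM. Skeletal muscle markers summed to 5.74 to 6.64, 1.99 to 3.29 and 1.30 to 2.94 CPM. None of the endothelial markers was called, and their sum lay between 3.17 and 4.82 CPM over all libraries. In bulk RNA, fewer cells of a type and less RNA per cell cannot be told apart, and the part of these shifts in the clock gene differences was not tested.

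Both plasmid groups differed from Control at most of the clock genes (the plot of levels by library). By edgeR's quasi-likelihood test with a Benjamini-Hochberg adjusted p under 0.05 (called, below), 7 of the 9 tested genes changed in WT: Arntl, Clock and Cry2 rose (3), and Per2, Nr1d1, Nr1d2 and Dbp fell (4). Over all tested genes 56.8% were called in that comparison, 28.7% higher and 28.1% lower. In SIRT5F101L 7 were called as well, Arntl, Clock and Cry2 higher and Per2, Nr1d1, Nr1d2 and Dbp lower, where 60.7% of all genes were called, 30% higher and 30.7% lower. For those 7 genes no plasmid library overlapped the Control range, which held for 53.5% of all genes in WT and 51.3% in SIRT5F101L. These backgrounds are so high that a count of 7 in 9 says little about the clock genes as a set. Both comparisons use the same Control libraries and are not independent. At least 2-fold changes were made by 2 clock genes in WT and 3 in SIRT5F101L, against 2375 and 2496 of all 14253 genes. The median size of the log2 fold change was 0.53 and 0.42 over the clock genes, and 0.37 and 0.40 over all tested genes. Nothing in the labels places the libraries of a group in separate cultures or animals, so p-values measure the spread between these libraries, which may be technical.

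**Figure D1:**
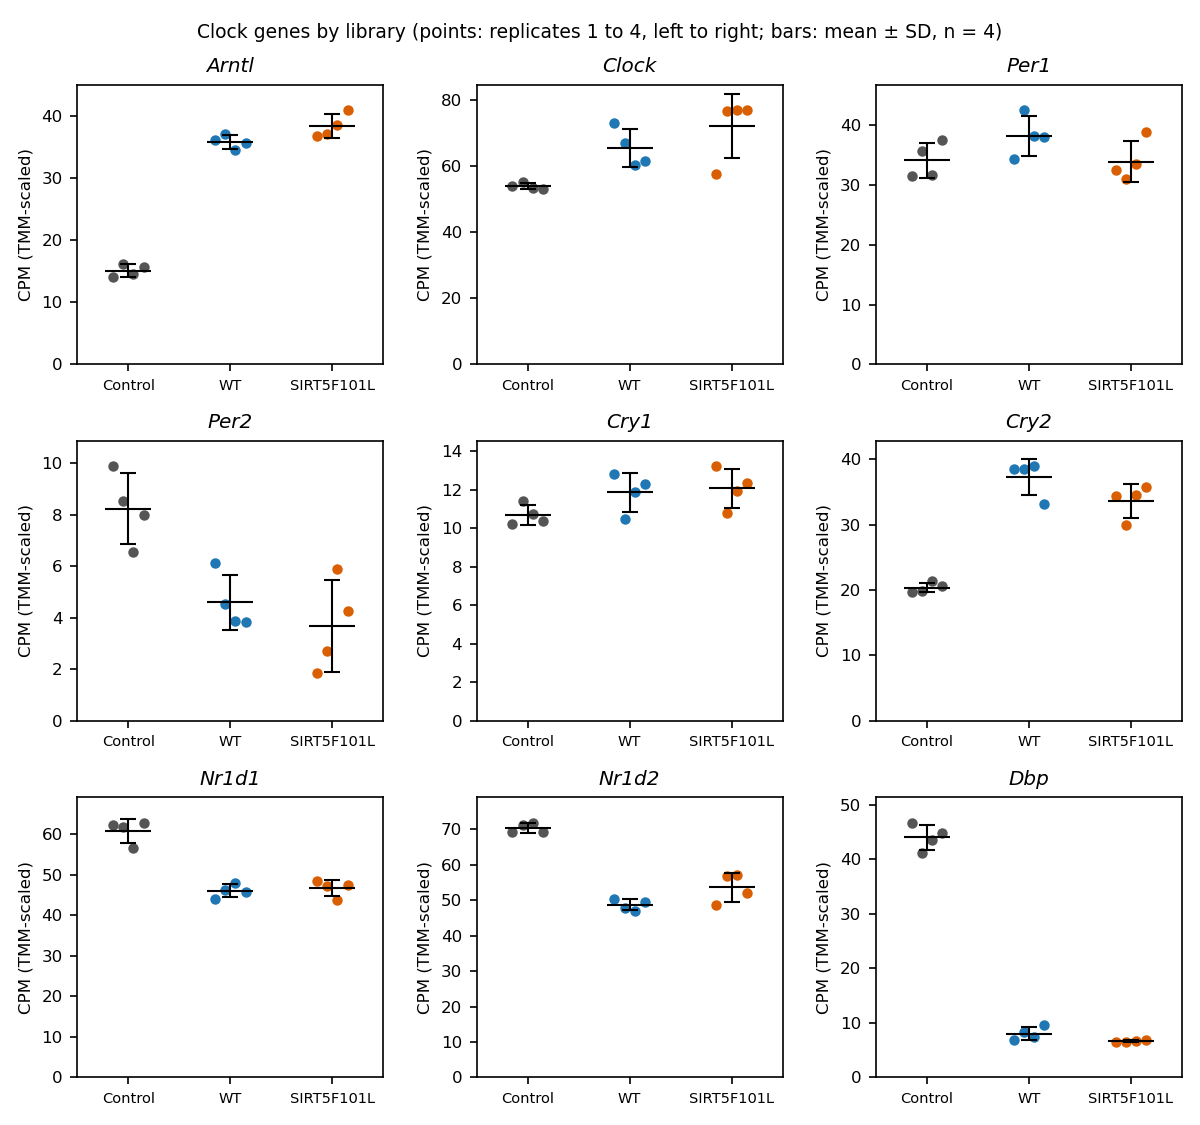
Level of the clock genes in CPM (TMM-scaled) in each of the 12 libraries, by group; points are libraries, and bars give the mean and SD over 4 libraries. Control and both plasmid groups do not overlap for Arntl or Dbp, whereas the ranges of the 3 groups overlap for Per1 and Cry1.

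Promoter windows were read for the motifs through which the clock acts, so that the genes can be set beside their regulatory sequence. RefSeq windows of 250 bases before to 50 after each start (GRCm38.p6) were at hand for 9 of the 10 genes, not for Per2. Both strands were searched for the E-box CACGTG (in 7.15% of all 32851 windows), the E-prime box CACGTT (4.68%), the D-boxes TTATGTAA (0.938%) and TTATGCAA (0.743%), the cyclic AMP response element TGACGTCA (1.79%) and the ROR response element (0.773%). The 4 stretches that follow hold matches in core clock genes and are written 5′ to 3′, with matches in capitals. The first base of the transcript is position 0. A match is a description of letters, not of binding.

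Per1 (chr11:69098749-69098948, + strand, from -200; an E-box and a D-box): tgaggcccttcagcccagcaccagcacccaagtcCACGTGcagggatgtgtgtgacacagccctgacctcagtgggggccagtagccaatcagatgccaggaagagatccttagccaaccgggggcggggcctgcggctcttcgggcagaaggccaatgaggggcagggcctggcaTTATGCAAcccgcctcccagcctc

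Cry1 (chr10:85185055-85185174, - strand, from -120; an E-prime box read on the other strand and an E-box): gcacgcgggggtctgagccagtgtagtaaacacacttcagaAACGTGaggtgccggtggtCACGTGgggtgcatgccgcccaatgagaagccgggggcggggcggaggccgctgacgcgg

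Nr1d1 (chr11:98775378-98775477, - strand, from -100; an E-prime box read on the other strand): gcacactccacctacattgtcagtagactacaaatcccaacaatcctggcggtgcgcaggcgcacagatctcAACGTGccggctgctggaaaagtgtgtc

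Arntl (chr7:113207528-113207557, + strand, +17 to +46 of the second of its windows; a ROR response element, the site that REV-ERB and ROR proteins share): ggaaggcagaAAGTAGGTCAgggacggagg

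In the windows of Clock, Nr1d2 and Dbp none of the searched letters was found. Cry2 held an E-prime box at -166, and Per3 held a D-box TTATGTAA at -205 and at -158.

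Arntl was the clearest riser. It measured 14.1, 16.2, 14.5 and 15.7 CPM in the 4 Control libraries, 36.2, 37.1, 34.5 and 35.6 in WT, and 36.8, 37.2, 38.6 and 41.0 in SIRT5F101L. All 8 plasmid libraries lay above all Control libraries. The mean rose from 15.1 ± 0.980 (SD, n = 4) to 35.9 ± 1.11 and 38.4 ± 1.90 CPM, which is 2.37-fold and 2.54-fold (log2 1.25, SE 0.08, and 1.34, SE 0.08; edgeR adjusted p = 1.78e-11 and 4.72e-12).

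Clock, the partner of BMAL1 that carries acetyltransferase activity, moved much less. Control libraries read 53.9, 55.0, 53.4 and 52.9 CPM, WT libraries 72.8, 66.9, 60.2 and 61.4, and SIRT5F101L libraries 57.5, 76.7, 76.8 and 76.9. The lowest of these plasmid libraries, SIRT5F101L replicate 1, still lay above the highest Control library. The log2 difference from Control was 0.28 (SE 0.09) in WT and 0.42 (SE 0.09) in SIRT5F101L, with edgeR adjusted p = 0.00908 and 0.000294. With a per-library trend on transcript length as an offset the differences were 0.14 and 0.15, still called.

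The paralogs of both activators were higher as well. Npas2, which can take the place of CLOCK, rose from 6.39 to 9.78 and 11.6 CPM, with log2 differences of 0.61 and 0.85. Arntl2 (BMAL2) rose from 7.57 to 14.3 and 16.0 CPM, by 0.91 and 1.08 on the log2 scale.

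Of the PER repressors, Per1, an early-response member, was not called. Its means were 34.1 ± 3.0, 38.2 ± 3.35 and 33.9 ± 3.41 CPM (SD, n = 4 each), the groups overlapped, and the log2 differences from Control were 0.16 (edgeR adjusted p = 0.121) and -0.01 (0.949).

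Per2, the repressor needed for a sustained rhythm in many tissues, was low and fell further. Control libraries read 9.88, 8.52, 6.55 and 7.98 CPM, WT libraries 6.12, 4.55, 3.87 and 3.86, and SIRT5F101L libraries 1.87, 2.73, 5.90 and 4.25. The plasmid libraries all lay under the lowest Control library, but the SIRT5F101L libraries spread widely, with counts of 35 to 147 and a coefficient of variation of 48.0%. Per2 fell by 0.83 (SE 0.24) in WT and by 1.12 (SE 0.25) in SIRT5F101L on the log2 scale, with edgeR adjusted p = 0.00667 and 6e-04.

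Per3 had no count in any library, where 3 counts would be at most 0.195 CPM. In the GENCODE M21 annotation (GRCm38) the gene lies wholly inside the span of Camta1, with none of its exon bases in a Camta1 exon. Vamp3, in the same span, was also listed at 0. Nearly all genes placed in this way were at 0 in these files, so the value for Per3 is not read as a lack of its RNA.

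The cryptochromes, which carry much of the repression of the BMAL1-CLOCK pair, parted. Cry1 read 10.2 to 11.4 CPM in Control, 10.5 to 12.8 in WT and 10.8 to 13.2 in SIRT5F101L, and the groups overlapped. Its log2 differences from Control were 0.15 and 0.18, with edgeR adjusted p = 0.211 and 0.141. Cry2 read 19.8, 19.9, 21.4 and 20.5 CPM in Control, 38.4, 38.6, 38.9 and 33.1 in WT, and 34.4, 29.9, 34.6 and 35.8 in SIRT5F101L. No plasmid library reached down to the Control range. Cry2 rose 1.83-fold in WT and 1.65-fold in SIRT5F101L (log2 0.87, SE 0.08, and 0.73, SE 0.08; edgeR adjusted p = 1.3e-08 and 1.73e-07). A large share of Cry2 exon bases, 60.6%, lies in the span of D930015M05Rik, but only 4.67% lies in its exons. D930015M05Rik was listed at 0 in all libraries.

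The REV-ERB genes Nr1d1 and Nr1d2 both fell. Nr1d1 read 62.2, 61.7, 56.5 and 62.7 CPM in Control, 44.1, 46.3, 47.9 and 45.6 in WT, and 48.4, 47.2, 43.7 and 47.5 in SIRT5F101L. Every plasmid library lay under the lowest Control value of 56.5. It fell by 0.40 (SE 0.06) and 0.38 (SE 0.06) on the log2 scale, with edgeR adjusted p = 1.91e-05 and 3.27e-05. Nr1d1 overlaps Thra, a thyroid hormone receptor gene on the opposite strand. Of the Nr1d1 exon bases, 15.9% lie in the Thra span and 8.55% in Thra exons. Thra fell from 91.3 to 36.7 and 37.6 CPM, and whether reads were assigned by strand is not given in the sources used here, so the part of Thra reads in the Nr1d1 value was not tested.

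Nr1d2 has no such overlap. It read 69.3, 71.3, 71.8 and 69.2 CPM in Control, 50.5, 47.7, 47.1 and 49.5 in WT, and 48.5, 56.9, 57.2 and 52.1 in SIRT5F101L, again without overlap with Control. It fell by 0.53 (SE 0.06) and 0.39 (SE 0.06) on the log2 scale, with edgeR adjusted p = 6.81e-07 and 2.8e-05.

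ROR receptors activate the sites that REV-ERB proteins repress. Rora had means of 85.1, 105 and 137 CPM in Control, WT and SIRT5F101L, and log2 differences of 0.30 and 0.69. The Rora call in WT (edgeR adjusted p = 0.0402) was lost in 7 of the 16 alternative settings. Rorb rose by 1.97 and 1.99 on the log2 scale, from 3 to 18 counts per Control library, a level at which the size of the change is poorly known.

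Dbp showed the largest change of the 9 tested clock genes. It read 46.6, 41.2, 43.6 and 44.8 CPM in Control, 6.91, 8.27, 7.39 and 9.57 in WT, and 6.52, 6.50, 6.70 and 6.80 in SIRT5F101L. The groups lay far apart: 803 to 820 counts in each Control library faced at most 186 in any WT library. Dbp fell 5.48-fold in WT and 6.63-fold in SIRT5F101L (log2 -2.45, SE 0.10, and -2.73, SE 0.10; edgeR adjusted p = 1.72e-14 and 3.98e-15). Among all tested genes, only 1.46% and 1.15% had a lower fold change. Of the exon bases of Dbp, 18.0% lie in exons of the neighbouring Sphk2, whose log2 differences were -0.31 and -0.49.

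**Figure D2:**
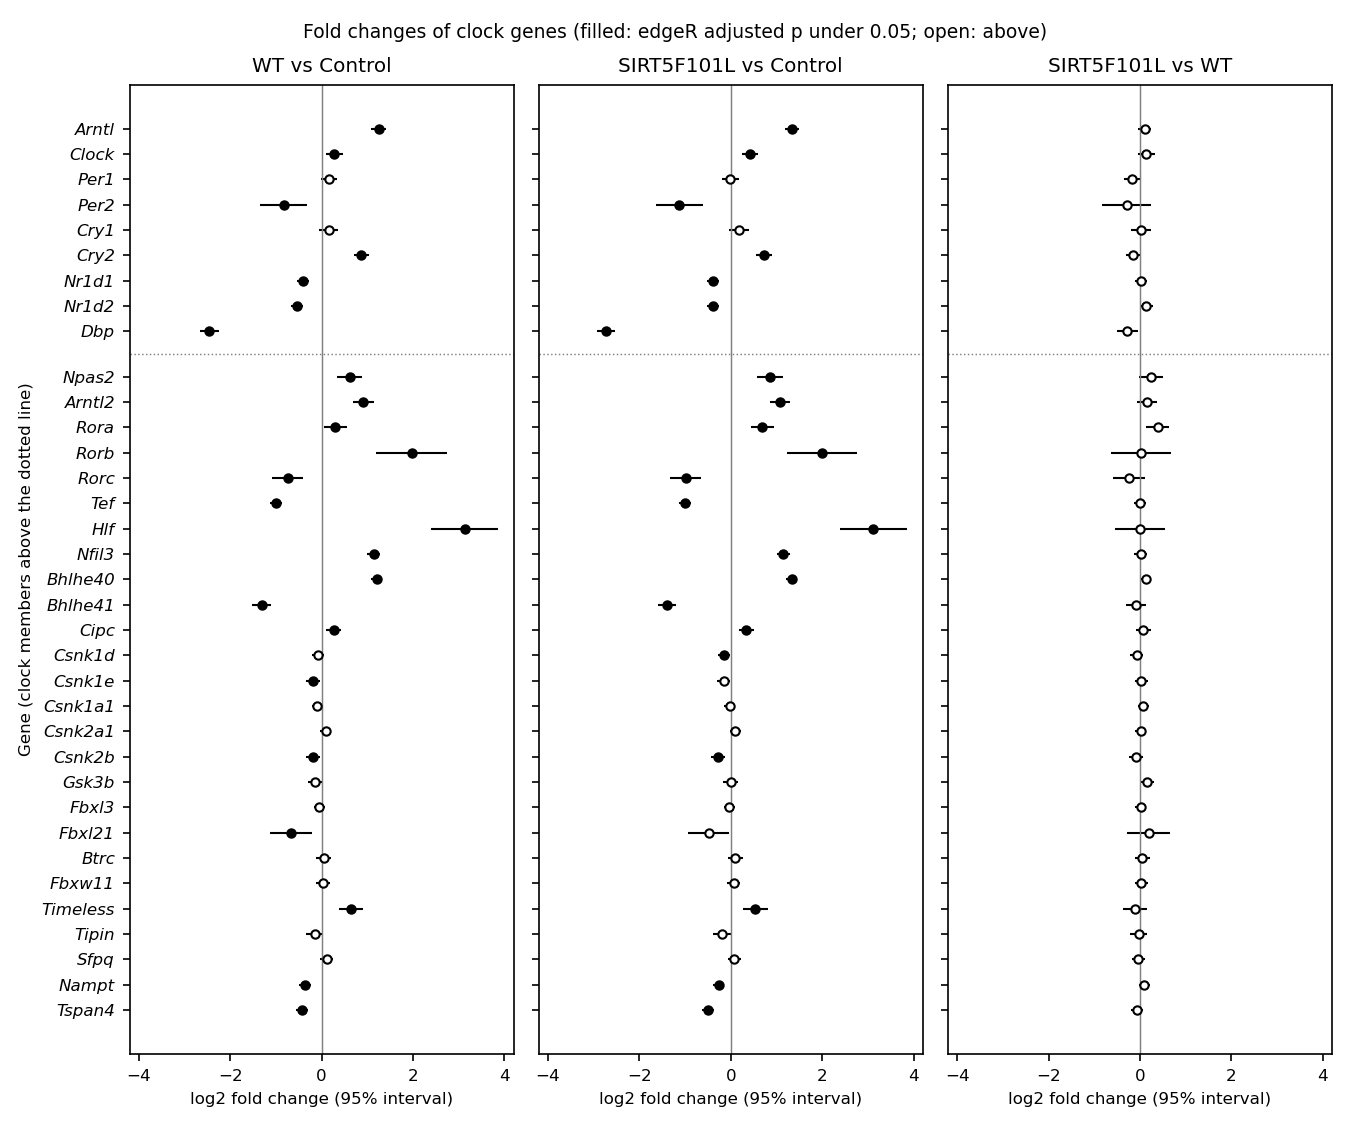
Log2 fold changes of the clock genes with 95% intervals from the edgeR fit, WT and SIRT5F101L each against Control, and SIRT5F101L against WT. Arntl, Clock and Cry2 lie above 0 and Per2, Nr1d1, Nr1d2 and Dbp below 0 against Control, and the values for SIRT5F101L against WT run from -0.29 (Per2) to 0.14.

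The relation of Arntl to its output Dbp turned over between Control and the plasmid groups. The log2 ratio of Arntl to Dbp was -1.72 to -1.34 in Control, 1.89 to 2.37 in WT and 2.48 to 2.57 in SIRT5F101L. A ratio within a library does not depend on its scaling, and no library of a plasmid group came near the Control range. The log2 ratio of Arntl to Nr1d1 was -2.14 to -1.93 in Control, -0.47 to -0.28 in WT and -0.39 to -0.18 in SIRT5F101L. These ratios restate the 2 fold changes of each pair and are given as a description.

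**Figure D3:**
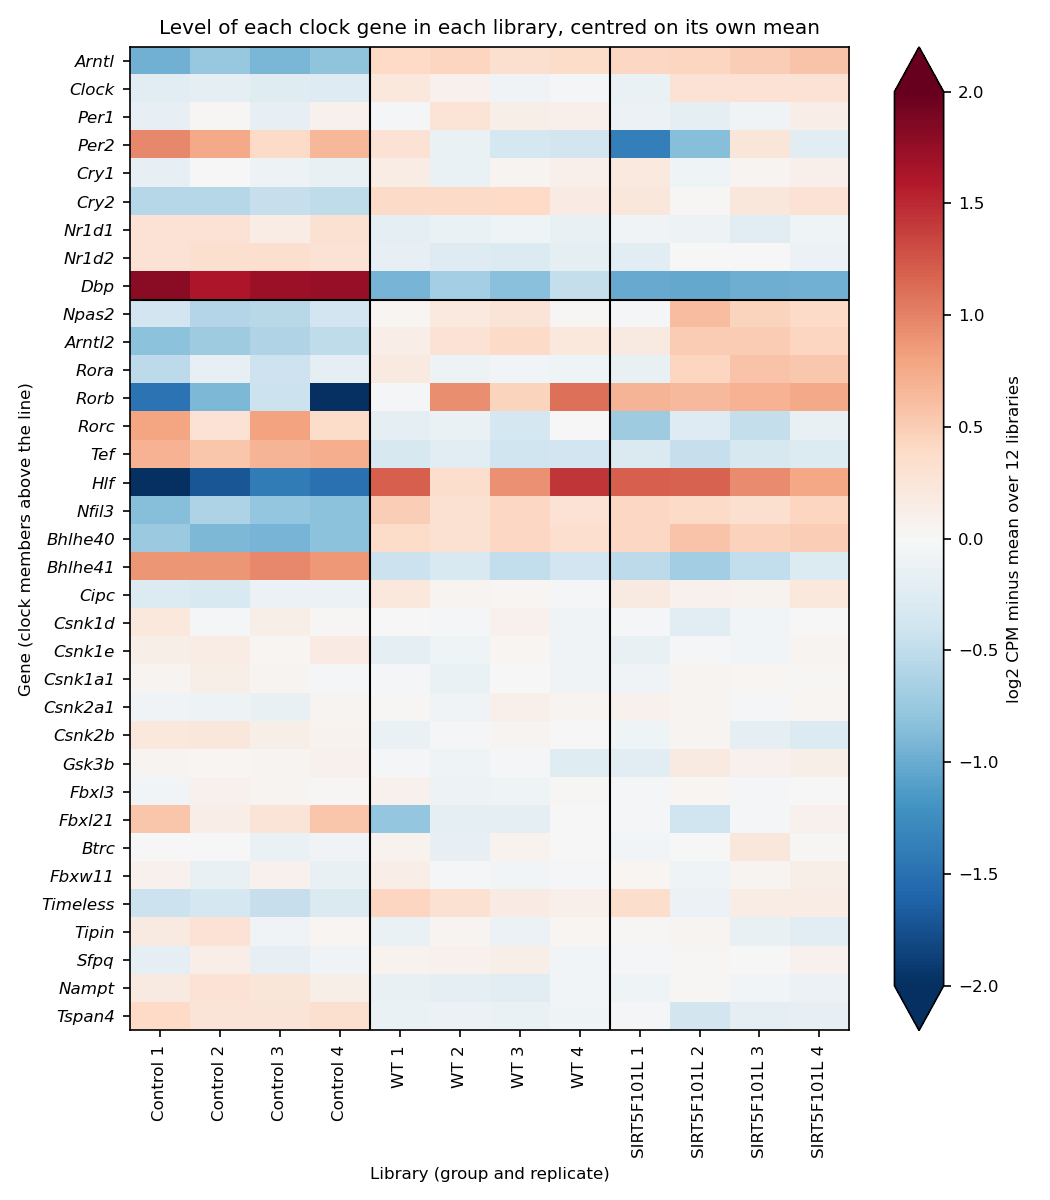
Log2 CPM of the tested clock genes in each of the 12 libraries, centred on each gene's mean over all libraries. Among the 9 clock genes, the 4 Control libraries lie under all 8 plasmid libraries for Arntl, Clock and Cry2. They lie above all 8 for Dbp, Per2, Nr1d1 and Nr1d2.

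Of 29 other clock pathway genes, 26 were tested, and Ciart, Usp2 and Wee1 were listed at 0 in all libraries, each lying inside the span of another gene. In WT 9 rose and 8 fell, and in SIRT5F101L 9 rose and 7 fell, which is 65.4% and 61.5% of the tested genes beside the backgrounds of 56.8% and 60.7%. The D-box factors did not move together. Tef, like Dbp a PAR bZIP activator, fell from 120 to 60.2 and 60.0 CPM (log2 -0.99 and -1.0; edgeR adjusted p = 5.41e-11 and 4.77e-11). Hlf, the third PAR bZIP activator, rose by 3.13 and 3.12 on the log2 scale, from 1 to 10 counts per Control library to 32 to 86 and 49 to 78. Nfil3 (E4BP4), which represses the same D-boxes, rose from 28.1 to 62.0 and 62.5 CPM, by 1.14 and 1.15 on the log2 scale.

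The paired E-box repressors Bhlhe40 (DEC1) and Bhlhe41 (DEC2) moved in opposite directions. Bhlhe40 rose from 113 to 261 and 285 CPM (log2 1.20 and 1.33; edgeR adjusted p = 5.44e-13 and 1.07e-13). Bhlhe41 fell from 21.9 to 8.83 and 8.31 CPM (log2 -1.31 and -1.40; edgeR adjusted p = 4.99e-10 and 1.81e-10). Tef and Bhlhe41 are shown because both fell and both hold an E-box before their start, in capitals. They were chosen after their values were seen. The other clock genes with an E-box in a window did not move one way: Per1 and Cry1 were not called, Cipc rose, Tspan4 (at -51) fell and Ciart was listed at 0.

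Tef (chr15:81802523-81802582, + strand, from -150): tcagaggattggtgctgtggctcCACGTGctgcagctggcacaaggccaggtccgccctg

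Bhlhe41 (chr6:145865531-145865590, - strand, from -170): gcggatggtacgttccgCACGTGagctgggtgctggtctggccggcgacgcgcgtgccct

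Cipc, an inhibitor of CLOCK, rose by 0.27 and 0.34 on the log2 scale, and its E-box lies at -17. Timeless rose by 0.65 and 0.54. The output genes Nampt, which makes the NAD precursor that sirtuins depend on, and Tspan4 fell, Nampt by 0.36 and 0.27 and Tspan4 by 0.42 and 0.49. The kinases and ubiquitin ligases set the life of PER and CRY proteins. Of the 10 kinase and ubiquitin ligase genes, Csnk1e, Csnk2b and Fbxl21 were called in WT (log2 -0.19, -0.19 and -0.67) and Csnk1d and Csnk2b in SIRT5F101L (-0.15 and -0.28). Each of these calls was lost in at least 1 alternative setting. Csnk2b in SIRT5F101L lost it with the length offset (log2 -0.11, edgeR adjusted p = 0.18).

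**Figure D4:**
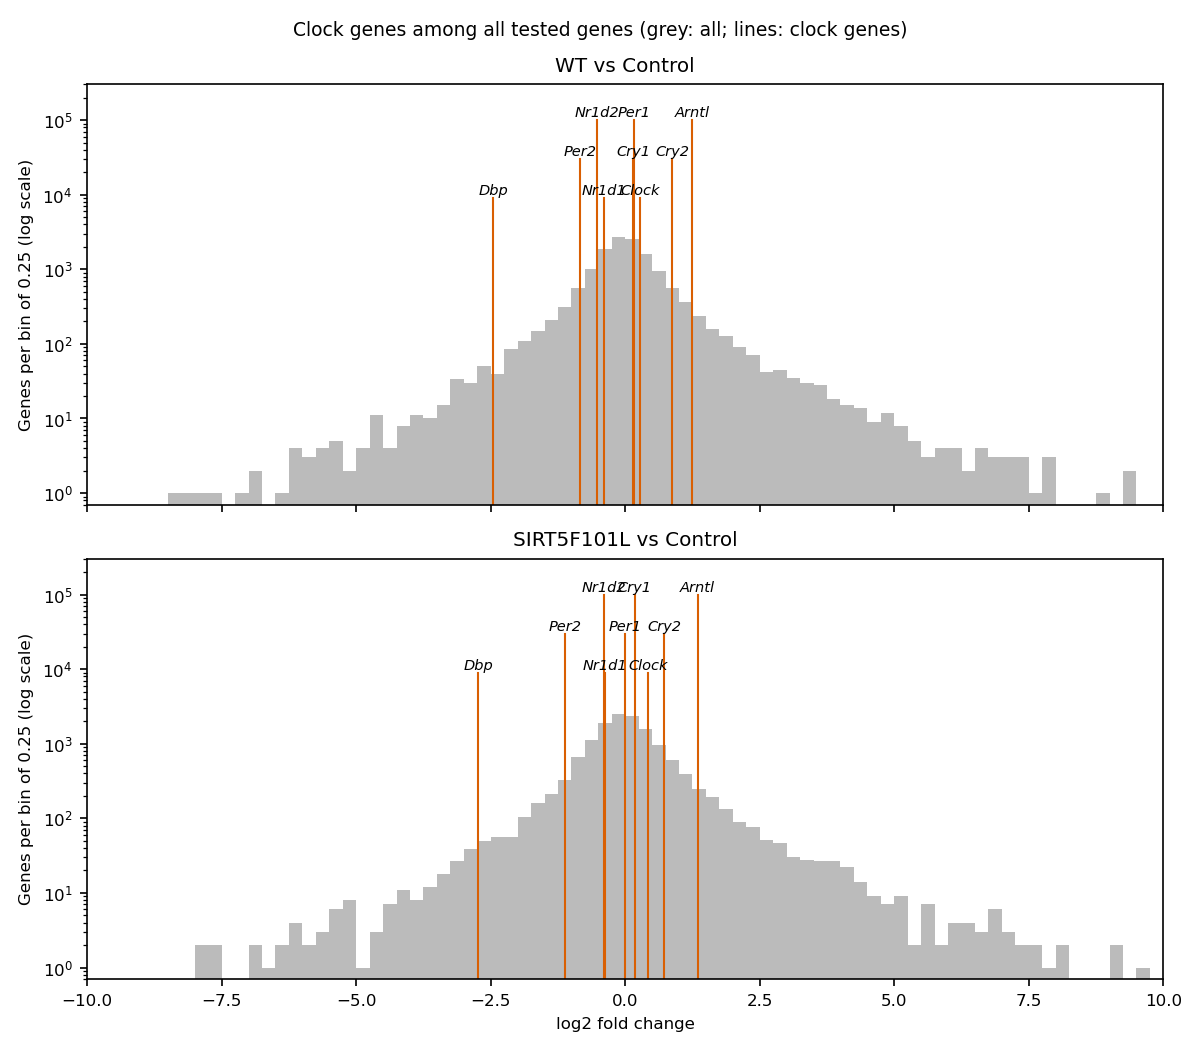
Number of genes (log axis, grey bars) by log2 fold change against Control over all 14253 tested genes, for WT above and SIRT5F101L beneath, with lines at the clock genes. Dbp lies in the lower tail and Arntl in the upper part, while Per1 and Cry1 lie near 0.

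SIRT5F101L and WT were compared to ask whether the mutation alters the clock genes. No clock gene was called, beside 0.0421% of all genes (6 of 14253, edgeR), and 2 of the 9 had an unadjusted p under 0.05, as did 11.9% of all genes. DESeq2 also called none. Those 2 were Dbp, with a log2 difference of -0.28 (95% interval -0.50 to -0.05; edgeR adjusted p = 0.371), and Nr1d2, with 0.14 (0.00 to 0.28; 0.41). Every SIRT5F101L library lay under every WT library for Dbp, the single clock gene without overlap, where 4.02% of all genes had none. For Arntl the difference was 0.10 (-0.05 to 0.25), for Clock 0.14 (-0.04 to 0.32), for Per1 -0.17 (-0.36 to 0.01), for Cry1 0.02 (-0.19 to 0.23), for Cry2 -0.14 (-0.31 to 0.02) and for Nr1d1 0.02 (-0.11 to 0.16). The interval for Per2 was the widest, -0.83 to 0.25 around -0.29. The Per2 value was -0.65 without SIRT5F101L replicate 3, -0.18 without replicate 2 and -0.066 without replicate 1 of that group, and -0.12 without WT replicate 1, and was called in none of these fits. The intervals do not show that the groups act alike. Among the other clock genes none was called either, and Rora and Bhlhe40 had an unadjusted p under 0.05.

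This comparison turns on 1 library. Without SIRT5F101L replicate 1, edgeR called 2213 of 14528 genes (15.2%) in place of 6. Clock was then higher in SIRT5F101L than in WT by 0.23 (SE 0.07, adjusted p = 0.0141) and Nr1d2 by 0.19 (SE 0.06, adjusted p = 0.0423). Of the other clock genes, Rora was higher by 0.53, Gsk3b by 0.23 and Npas2 by 0.36 (adjusted p = 1.43e-05, 0.00745 and 0.0392). The labels give no reason to leave that library out.

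The genes whose centred log2 CPM ran closest to Arntl over the 12 libraries were Zc3h12a, Clcn3 and Gpd2, at a root mean square difference of 0.0685 to 0.0725. Among the clock genes, Cry2 was nearest to Arntl at 0.272, and Dbp farthest at 1.84. The closest to Dbp were Bmp4, Serpinb1a and Acta2, at 0.133 to 0.145, and its nearest clock gene was Per2 at 0.844. These distances are dominated by the step between Control and the plasmid groups that all of these genes share.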

How the data were processed

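Poly(A) RNA of 12 libraries was sequenced as 150 bp paired-end reads, per the labels' protocols. Each deposited table gives raw counts, 1 per Ensembl gene ID. The submitters' processing notes name FastQC 0.11.9, HISAT2 2.2.1, HTSeq 2.0.2, DESeq2 1.38.3 and the builds GRCm39 and mm39. The annotation and strand setting are not given in the sources used here. A supplied table of Ensembl names matched 52029 IDs. GENCODE M21 (GRCm38) served only for lengths and gene spans. The 4981 unnamed IDs (0.377% to 0.821% of counts) stayed in totals and tests.

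All 12 libraries were fitted in edgeR 4.0.16 (R 4.3.3) with TMM scaling, the default filter by group, group means (9 residual degrees of freedom) and 2-sided quasi-likelihood tests, adjusted by Benjamini-Hochberg over 14253 genes. SE is the log2 fold change divided by the square root of F. Counts of 3 as a floor, and values per count, cover counting error only. Within groups, libraries differed by 2.56 to 8.92 times sampling noise, and no 2 were identical. The fit was tested on simulated data. Alternatives were RLE and upper-quartile scaling, 2 other filters, DESeq2 1.42.0, an 8-library fit, a robust prior, a length offset and leaving out each library. Log2 CPM for distances used a prior count of 2. All 10 clock genes and any tested gene of the pathway list could be named, and the 3 nearest genes to the highest and lowest called clock gene. Genes and lists were chosen with earlier results of these data known. No label pairs libraries. Replicate numbers follow deposition order.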

Additional observations from a re-analysis of the deposited data

Results flagged for a closer look

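Within groups of 4 libraries, 5 of 105 gene and group combinations had 1 library set far apart from the rest, where chance alone gives about 5.25. Clock in SIRT5F101L was 57.5 CPM in replicate 1 and 76.7 to 76.9 in the other 3. Cry2 in WT was 33.1 CPM in replicate 4 and 38.4 to 38.9 in the others. Nr1d1 in Control was 56.5 CPM in replicate 3 and 61.7 to 62.7 in the others. In WT replicate 1, Rora was 119 CPM against 98.7 to 102 in the others, and Fbxw11 was 122 CPM against 107 to 108.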

How the results depend on the processing

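Against Control, the 7 clock genes called in each comparison kept their direction and their call under all 16 alternatives. Counts of other clock genes ranged from 13 to 18 for WT and from 15 to 19 for SIRT5F101L. Per1 in SIRT5F101L against Control, at -0.01 and not called, turned to 0.0020 with RLE scaling, 0.0017 with DESeq2 and 0.013 in the 8-library fit, and ran from -0.077 to 0.038 over fits without 1 library. Cry1 in SIRT5F101L against WT ran from -0.032 to 0.070 over those fits. Genes called in SIRT5F101L against WT numbered 354 with no filter beyond 1 count, 43 with DESeq2, 18 with the length offset, 2 with the robust prior and 2 in the 8-library fit, and 0 to 2213 without 1 library, the highest being without SIRT5F101L replicate 1 and 0 without each of the other 7. Clock genes called there were 0 to 2 and other clock genes 0 to 3 over those fits, and with no filter beyond 1 count 1 other clock gene was called, Rora. The causes were not tested. Low counts limit Per2, Rorb and Hlf. No paired analysis was possible because the labels give no replicate numbers shared between groups.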

Other observations

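Genes inside other genes were nearly all at 0 in these files. Of 1039 autosomal protein-coding genes lying wholly within another gene's span in GENCODE M21 (GRCm38), 1029 (99%) had no count in any library. Of the 693 among them with under 10% of their exon bases in exons of another gene, 685 (98.8%) had none. Among 6054 genes partly inside another span 412 (6.81%) were at 0, and among 13430 with no such overlap 2389 (17.8%). Per3, Ciart, Usp2 and Wee1 belong to the first class. The step that led to these zeros was not tested, and the counts cannot show whether these genes were expressed.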
